A study of Mus musculus with 6 samples.

Results

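Transcripts of the T cell receptor complex and of T cell markers were examined in RNA of splenic B cells. The members were chosen by gene symbol and comprised the CD3 chains Cd3e, Cd3d and Cd3g, the co-receptors Cd4 and Cd8a, the surface markers Thy1 and Cd28, the kinase Zap70 and the factor Tcf7. Of these 9 symbols 8 were measured, by 11 of the array's 12488 probe sets, among 8251 named genes in all. Tcf7 was not analysed here.

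The RNA came from primary splenic B cells of adult mice on 6 Affymetrix MG_U74Av2 arrays, 2 for each of 3 groups. Wild type mice were of the CBA strain. Xid mice were of the CBA/N strain, whose Btk kinase carries the R28C substitution. Btk KO mice descended from a Btk knockout on SW129, crossed to CBA over 9 generations, so neither mutant line is told apart here from its strain background. No treatment is given for any group, and the labels do not say how the cells were purified or whether an RNA came from 1 animal or several. A first set of 3 chips, 1 per group, is called run 1, and a second set made from new mice is called run 2. The 2 arrays of a group therefore differ in mice, RNA and chip lot at once. Values are linear intensities, scaled by the authors to a common trimmed mean, and the number of arrays limits their precision.

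The T cell receptor recognises peptide on MHC molecules but has no signalling tail of its own. It signals through the CD3 chains, whose tails are phosphorylated by a Src family kinase brought in by CD4 or CD8, and ZAP70 then binds the phosphorylated tails and passes the signal on. B cells use the CD79 chains and the kinase SYK in these places, with BTK downstream, so CD3 transcripts in a B cell preparation are commonly read as a trace of T cells. ZAP70 is also present in NK cells.

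Promoter windows are shown for the CD3 genes, whose starts neighbour each other on chromosome 9, and for Zap70, the one member with a difference that passed a test below. Each window runs from 250 bases before to 50 bases after the RefSeq gene start of the build GRCm38.p6, 5′ to 3′ on the strand given, and for Zap70 the most upstream of 3 listed starts was taken. Capitals mark CACCTG, a binding word of E proteins, and TGACGTCA, the cyclic AMP response element, on either strand.
Cd3e (chr9:45009562-45009861, - strand): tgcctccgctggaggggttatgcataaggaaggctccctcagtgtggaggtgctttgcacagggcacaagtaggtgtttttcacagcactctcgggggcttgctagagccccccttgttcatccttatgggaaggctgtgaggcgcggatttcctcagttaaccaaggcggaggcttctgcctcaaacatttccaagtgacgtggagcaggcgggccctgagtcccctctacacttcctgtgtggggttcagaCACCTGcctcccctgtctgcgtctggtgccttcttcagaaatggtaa
Cd3d (chr9:44981536-44981835, + strand): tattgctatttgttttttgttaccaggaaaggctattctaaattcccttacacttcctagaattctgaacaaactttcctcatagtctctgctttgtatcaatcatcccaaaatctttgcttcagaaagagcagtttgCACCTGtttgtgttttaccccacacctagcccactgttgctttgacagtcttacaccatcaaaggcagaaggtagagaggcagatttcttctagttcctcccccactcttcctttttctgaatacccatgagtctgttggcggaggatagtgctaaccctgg
Cd3g (chr9:44980382-44980681, - strand): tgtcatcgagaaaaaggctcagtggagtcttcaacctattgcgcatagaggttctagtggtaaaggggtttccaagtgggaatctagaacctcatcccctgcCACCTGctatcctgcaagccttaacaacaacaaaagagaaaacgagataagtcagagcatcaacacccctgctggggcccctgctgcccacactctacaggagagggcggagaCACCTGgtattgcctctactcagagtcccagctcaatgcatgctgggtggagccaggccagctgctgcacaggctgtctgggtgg
Zap70 (chr1:36761548-36761847, + strand): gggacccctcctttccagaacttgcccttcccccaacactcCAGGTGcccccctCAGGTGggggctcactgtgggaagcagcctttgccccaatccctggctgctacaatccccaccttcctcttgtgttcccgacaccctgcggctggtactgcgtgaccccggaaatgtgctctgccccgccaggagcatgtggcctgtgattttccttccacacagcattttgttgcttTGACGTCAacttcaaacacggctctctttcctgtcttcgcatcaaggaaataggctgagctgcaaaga
The word CACCTG stood in all 4 windows and in 20.2% of the 32851 promoter windows of the same length. TGACGTCA stood in the Zap70 window alone among the 4, and in 1.79% of all windows. On either strand 11 further words were searched. The TATA box word TATAAA, in 13.6% of all windows, and the RUNX word ACCACA, in 16.8%, were in none of the 4, nor were the longer TCF words AACAAAG (5.85% of all) and with other first letters TTCAAAG (5.14%). The short TCF word CAAAG, which lies within both of them, was in 3 of the 4 and in 53.9% of all windows. The ETS words were AGGAAG (3 of the 4, 35.4% of all), then TTCCTG (3 of the 4, 30.6%) and also CCGGAA (Zap70 alone, 14.9%). TGACGT, which lies within the response element, was in 2 of the 4 and in 7.51% of all windows. The E protein word CAGCTG (16.3% of all) and the SP1 word CCGCCC (35.7% of all) were each in the Cd3g window alone. These are matches of letters and no test of binding.

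Levels of B cell markers were read first, which is no test of purity. Cd79a, a signalling chain of the B cell receptor, read between 3066.3 and 6004.4 on the 6 arrays. Its Btk KO difference from CBA was -0.69 and did not pass (limma adjusted p = 0.495). For 1 of the Ms4a1 probe sets, for the B cell surface protein CD20, the range was 3504 to 5588. The members read between 0.3 and 273.4 over their 11 probe sets. Levels of different probe sets are not comparable, because brightness also depends on the probes. Of the 11 probe sets 6 passed the filter on dim signals, a mean log2 level that corresponds to an intensity of 19.8, and these stand for Cd3e, Cd4, Thy1, Cd28 and Zap70. All of Cd3g, Cd8a and both Cd3d probe sets stayed below it, as did 1 of 3 for Zap70, so they were not tested and are given as values. One array, Btk KO of run 1, had a 3′ to 5′ ratio of 10.4 for the Gapdh controls, a sign of degraded RNA, against at most 1.61 on the other 5. Its hybridisation day differed from that of the CBA and Xid arrays of run 1, while the arrays of run 2 shared 1 day.

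**Figure D1:**
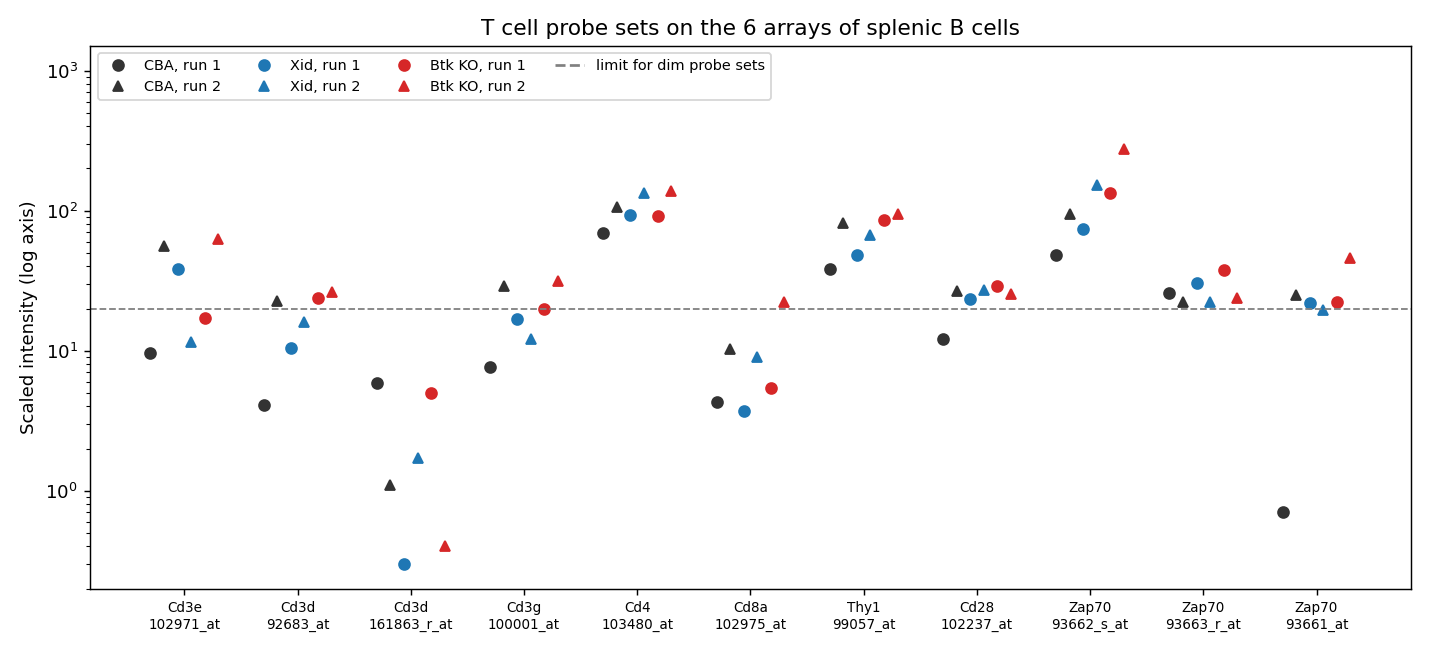
Scaled intensity (log axis) of the 11 T cell probe sets on each of the 6 arrays, coloured by group, with circles for run 1 and triangles for run 2. The dashed line is the limit of 19.8 for dim probe sets, which corresponds to the mean log2 level below which a set was left out, so a set with 1 very low array can fall below it though its mean intensity does not. Among the 3 Zap70 probe sets, the brightest alone has both Btk KO points above both CBA points.

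The CD3 chains were at or near the dim limit, and for Cd3e the arrays of a group differed more than the group means did. Cd3e, the epsilon chain that pairs with the delta and gamma chains, read 9.7 and 56.2 in CBA (run 1, then run 2), 38.5 and 11.5 in Xid, and 17.0 and 62.6 in Btk KO. The groups overlapped fully, and the order of the runs in Xid was opposite to that in CBA and Btk KO. Cd3e differed from CBA by -0.16 ± 0.80 in Xid (log2, SE) and by 0.35 ± 0.80 in Btk KO, with adjusted p = 0.999 and 0.946 by limma. Within the runs the Xid difference was 1.5 and -1.83.

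Cd3g, the gamma chain, read 7.7 and 28.8 in CBA, 16.7 and 12.2 in Xid, and 19.9 and 31.2 in Btk KO. The brighter Cd3d probe set, for the delta chain, read 4.1 and 22.5 in CBA, 10.4 and 15.9 in Xid, and 23.7 and 26.4 in Btk KO. For Cd3d both Btk KO arrays lay above the other 4, narrowly over the run 2 CBA array, and for Cd3g they lay above both Xid arrays and overlapped with CBA. The other Cd3d set did not exceed 5.9 and fell to 0.3 on the Xid array of run 1. Summed over the brightest probe set of each of the 3 chains, the mean signal of CBA was 64.5 ± 60.8, that of Xid 52.6 ± 18.4 and that of Btk KO 90.4 ± 42.1 (SD, n = 2). The lowest sum was 21.5 on the CBA array of run 1, and the highest were 107.5 on the CBA array of run 2 and 120.2 on the Btk KO array of run 2. The spread within CBA was therefore wider than any difference between group means.

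The co-receptors mark the helper and the cytotoxic T cell lineages, and both are also found on subsets of mouse dendritic cells. Cd4 read 69.1 and 105.5 in CBA, 92.9 and 133.8 in Xid, and 91.8 and 138.7 in Btk KO. Run 2 was higher than run 1 in every group, and within each run both mutant lines lay above CBA. The Cd4 difference from CBA was 0.36 ± 0.32 in Xid and 0.38 ± 0.32 in Btk KO, and neither passed (adjusted p = 0.999 and 0.82 by limma; 0.74 and 0.40 with the run as a block). Cd8a, which forms the alpha chain of CD8, was dim throughout, at 4.3 and 10.3 in CBA, 3.7 and 9.0 in Xid, and 5.4 and 22.3 in Btk KO. Its highest value, on the Btk KO array of run 2, was the only one above the dim limit. Of 5 tested dendritic cell markers 4 had a higher mean in Btk KO than in CBA and 1 a lower one. By limma 0 were called with or without the block. Without the block 1 had an unadjusted p under 0.05 and with it 3, against 8.83% and 15.1% of all tested probe sets. Itgax, an integrin chain of dendritic cells, differed by 0.82, and Ccl22, a chemokine, by -0.59. The part of dendritic cells in the Cd4 and Cd8a signals was not tested.

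Thy1 encodes a surface glycoprotein of mouse T cells that NK cells can carry as well. It read 38.3 and 81.4 in CBA, 47.9 and 66.5 in Xid, and 86.3 and 94.1 in Btk KO. Both Btk KO arrays lay above the other 4, while Xid fell inside the range of CBA. The Thy1 difference of Btk KO was 0.63 ± 0.36 from CBA and 0.62 ± 0.36 from Xid, and neither passed (adjusted p = 0.71 and 0.998 by limma; 0.33 and 0.68 with the block). Against CBA it was 1.06 within run 1 and 0.20 within run 2. Cd28, the co-stimulatory receptor for CD80 and CD86, read 12.1 and 26.5 in CBA, 23.4 and 27.3 in Xid, and 29.0 and 25.6 in Btk KO. Apart from the CBA array of run 1, its arrays lay between 23.4 and 29.0 and did not separate the groups.

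Zap70 showed the one difference among the members that passed a test. Its brightest probe set, of the s type, read 48.0 and 94.8 in CBA, 73.9 and 151.2 in Xid, and 133.6 and 273.4 in Btk KO. In each run the order was CBA, then Xid, then Btk KO, and run 2 lay above run 1 in each group, by 0.90 for CBA, 0.98 for Xid and 1.0 for Btk KO (log2). The group means were 71.4 ± 33.1, 113 ± 54.7 and 204 ± 98.9 (SD, n = 2), so the Btk KO mean was 2.85 times that of CBA. Both Btk KO arrays lay above both CBA arrays, and the Xid arrays overlapped with each of the other groups. The difference from CBA was 1.42 ± 0.48 without a block (limma adjusted p = 0.40) and 1.42 ± 0.18 with the run as a block (adjusted p = 0.012), and within the runs it was 1.37 and 1.47. The call with the block was lost without the CBA array of run 1 (adjusted p = 0.081) or that of run 2 (0.074), where the differences were 1.46 and 1.38. Over all 21 alternatives that adjusted p ranged from 0.0118 to 0.856. Without the Btk KO array of low RNA quality, the blocked difference was 1.45 (adjusted p = 0.041). In bulk RNA, a change in the number of cells that carry a transcript and a change in the RNA per cell cannot be told apart.

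Xid lay between CBA and Btk KO for this Zap70 probe set. It differed from CBA by 0.60 ± 0.48 and Btk KO differed from Xid by 0.82 ± 0.48, and neither passed in either fit (limma adjusted p = 0.999 and 0.998; 0.36 and 0.32 with the block). Neither of the other Zap70 probe sets had the order CBA, Xid, Btk KO in both runs. The r type set read 25.8 and 22.3 in CBA, 30.5 and 22.3 in Xid, and 37.8 and 23.9 in Btk KO, and its difference between Btk KO and CBA was 0.27 ± 0.35. The dim set read 0.7 and 25.0 in CBA, 21.8 and 19.4 in Xid, and 22.3 and 46.0 in Btk KO. Its difference between Btk KO and CBA was 1.41, close to the 1.42 of the brightest set. Within the runs it was 2.08, against the CBA reading of 0.7, and 0.75. This set was not tested, and its Btk KO and CBA arrays overlapped. A suffix of s or r marks probe sets that can read more than one transcript or that broke a design rule, so the brightest set is not certain to read Zap70 alone.

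Counted over all members, limma called 0 of the 6 tested probe sets in each of the 3 comparisons without the block. Of all 7453 tested probe sets, 0.0671% were called in Xid against CBA, 0.174% in Btk KO against CBA and 0.0403% in Btk KO against Xid. At an unadjusted p under 0.05 there were 0, 1 and 0 members, against 4.43%, 8.83% and 3.61% of all. With the block, the Zap70 set in Btk KO against CBA was the only call, or 1 of 6 against 2.23% of all, and the background was 0.483% for Xid against CBA and 0.188% for Btk KO against Xid. At an unadjusted p under 0.05 the blocked fit had 1, 2 and 1 members, against 8.1%, 15.1% and 7.31% of all.

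With dim genes included and each gene read by its brightest probe set, 8 of 8 member genes had a higher mean in Btk KO than in CBA, against 55.5% of all named genes. In both runs 7 of the 8 were higher, against 32.9% of all, Cd28 being the exception. Both Btk KO arrays lay above both CBA arrays for 3 of the 8, namely Cd3d, Thy1 and Zap70, against 21.6% of all. The median difference of the 8 was 0.49, at 0.94 in run 1 and 0.19 in run 2, while that of all named genes was 0.05. For Xid against CBA the median was 0.08, at 0.63 in run 1 and -0.19 in run 2, and 3 of 8 were higher in both runs, against 29.5% of all. In that comparison the groups overlapped for all 8 genes, where 18.3% of all named genes had both Xid arrays above both CBA arrays. For Btk KO against Xid the median was 0.59, and 5 of 8 were higher in both runs (28.3% of all). Both Btk KO arrays lay above both Xid arrays for Cd3d, Cd3g and Thy1 (3 of 8, against 15.2%). The 3 comparisons share arrays pairwise.

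Of the 5 genes bright enough to test, 3 were higher in both runs in Xid than in CBA, against 27.8% of all tested probe sets, 4 in Btk KO than in CBA, against 31.4%, and 2 in Btk KO than in Xid, against 27.2%. Both Xid arrays lay above both CBA arrays for 0 of the 5 (17% of all). Both Btk KO arrays lay above both CBA arrays for Thy1 and Zap70 (20%), and above both Xid arrays for Thy1 (14.2%).

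**Figure D2:**
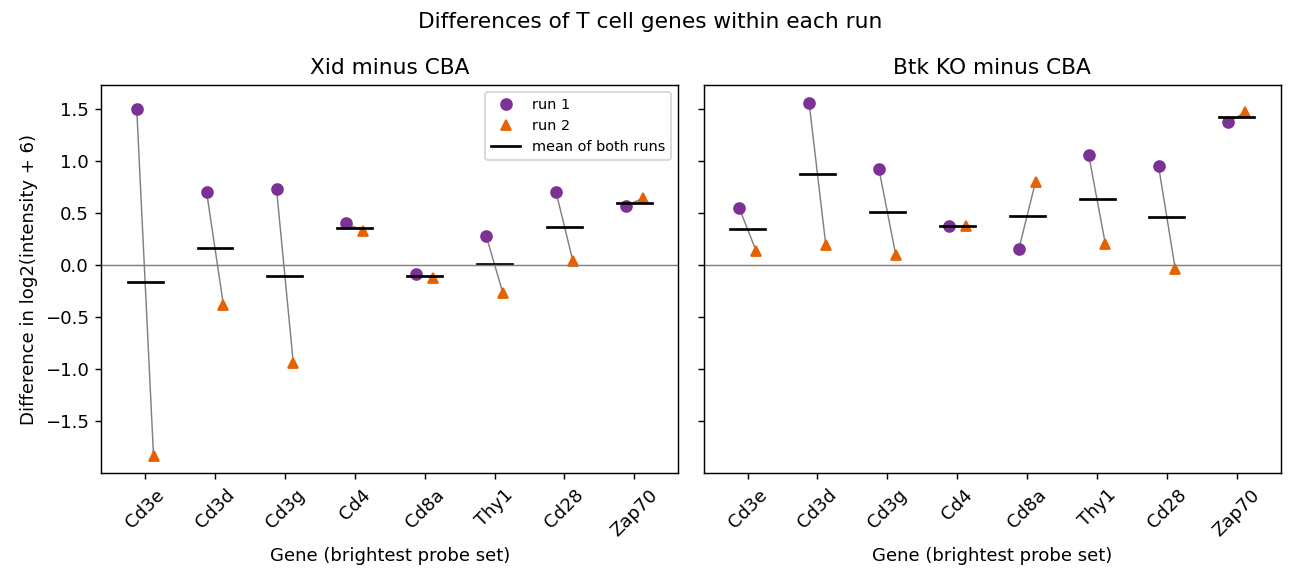
Difference in log2(intensity + 6) from CBA for each member gene, by its brightest probe set, in Xid (left) and Btk KO (right), with circles for run 1, triangles for run 2 and bars for their mean. Zap70 and Cd4 are nearly equal in both runs, whereas Cd3e in Xid lies at 1.5 in run 1 and -1.83 in run 2.

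Over the tested genes the median difference from CBA changed when either CBA array was left out. For the 8 genes with dim ones included it was not computed with an array left out. The CBA array of run 1 was the lowest of the 6 for 7 of the 8 genes, against 14% of all named genes, and the Btk KO array of run 2 was the highest for 7 of 8, against 13.6%. Run 2 read above run 1 in all 3 groups for 5 of the 8 genes, against 16% of all. For the 5 tested genes the median difference of Btk KO from CBA was 0.46 with all arrays, 1.12 without the CBA array of run 2 and 0.06 without that of run 1, where Cd3g passed the filter as a further gene. For Xid it was 0.36, and it fell below zero without the CBA array of run 1, at -0.27. Summed over the 7 genes other than Zap70, the signal was 145.3 and 331.2 in CBA, 233.5 and 276.2 in Xid, and 273.1 and 400.9 in Btk KO, so the groups overlapped.

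Among the 5 tested genes, Pearson's r over the 6 arrays was positive for every pair. It was 0.88 for Cd4 with Zap70, 0.85 for Thy1 with Zap70 and 0.82 for Thy1 with Cd28. Cd4 with Thy1, Cd4 with Cd28 and Cd28 with Zap70 had 0.70 to 0.72. For Cd3e, which read near the dim limit, it was 0.40 to 0.52 with each of the others. Whether these values differ from each other was not tested. Each value rests on 6 arrays that share runs and groups and is a description. The mean centred log2 level of the 5 genes was -0.82 and 0.23 in CBA, -0.13 and 0.02 in Xid, and 0.04 and 0.66 in Btk KO. Of 5591 other genes, the 5 whose levels followed this mean most closely were Cry2 (r = 0.989), Coro1b (0.976), Vbp1 and Snx4 (0.964 each) and Otub1 (0.963). Among so many genes some will follow any profile over 6 arrays, and nothing on shared control is read from it.

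Other genes of the T cell receptor pathway and of T cells were taken from 4 further lists of 59 symbols, of which 37 had a probe set and 22 passed the filter. Without the block limma called 0 of the 22 in any comparison. In Xid against CBA 4 had an unadjusted p under 0.05, in Btk KO against CBA 5 and in Btk KO against Xid 2. Over all tested probe sets the shares were, in this order, 4.43%, 8.83% and 3.61%. With the block 4 rose in Btk KO against CBA, namely Lcp2, Txk, Cd7 and Il7r, and none fell, against 2.23% of all probe sets called in either direction, and 0 passed in the other comparisons. At an unadjusted p under 0.05 the blocked fit had 7, 11 and 5 of the 22, against 8.1%, 15.1% and 7.31% of all. The median of the 22 in Btk KO against CBA was 0.42, beside 0.01 over all tested probe sets. Of the 22, 13 were higher and 9 lower, against 3810 higher and 3643 lower over all.

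Of the receptor chains and co-receptors in these lists, 3 genes were bright enough to test. Trgv1, a variable segment of the gamma chain that gamma-delta T cells use, read 40 and 54.8 in CBA, 50.3 and 55.2 in Xid, and 90.9 and 109.7 in Btk KO. Both Btk KO arrays lay above all others, but the difference of 1.0 ± 0.26 from CBA did not pass (limma adjusted p = 0.27, and 0.075 with the block). Trbv1 and Trbv13-2, segments of the beta chain, differed by 0.43 ± 0.41 and 0.50 ± 0.35 and did not pass. Cd247, the zeta chain with the most signalling motifs of the complex, was dim, and on its brighter probe set both Btk KO arrays (20.1 and 34.3) lay above the other 4 (1.6 to 17.9). Cd8b1, the beta chain of CD8, read at most 16.2. Trgv4, another segment of the gamma chain, was dim too, and both Btk KO arrays (27.8 and 39.7) lay above the other 4 (9.6 to 16.4). For the dim Trav19 and Trav6-2, Btk KO overlapped with CBA.

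Of the signalling genes 11 were tested, and 5 were higher and 6 lower in Btk KO than in CBA. Over all tested probe sets 3810 were higher and 3643 lower. Lcp2, the adaptor SLP-76 that ZAP70 phosphorylates in T cells and that NK, myeloid and platelet cells use too, read 24.2 and 38.0 in CBA, 68.8 and 90.0 in Xid, and 124.2 and 162.7 in Btk KO. No group overlapped with another. Lcp2 rose by 2.02 ± 0.21 in Btk KO with the block (limma adjusted p = 0.0064) and missed the threshold without it (0.0515). Under the block the call was lost without the CBA array of run 1 (1.94, adjusted p = 0.0503) and held without each other array in turn. Its Xid difference of 1.22 ± 0.29 did not pass (adjusted p = 0.48, and 0.088 with the block).

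Txk, a Tec family kinase of T and NK cells, read 9.5 and 20.2 in CBA, near the dim limit, then 39.2 and 69.2 in Xid, and 81.1 and 81.4 in Btk KO. On this probe set, the brighter one, again no group overlapped with another. The other Txk probe set was dim and was not tested. It read 15.2 and 5.8 in CBA, 18.9 and 17.3 in Xid, and 19.0 and 15.4 in Btk KO. Its Btk KO difference was 0.55 from CBA and -0.06 from Xid. On the brighter set Txk rose by 2.11 ± 0.30 in Btk KO with the block (limma adjusted p = 0.017, and 0.11 without it). The blocked call was lost without either CBA array (adjusted p = 0.098 and 0.052), without Xid of run 2 (0.052) or without Btk KO of run 1 (0.092). The size was 2.46 with a pseudocount of 1 and 1.68 with one of 16. Lat, the membrane adaptor beside SLP-76, differed by 0.50 ± 0.24 and did not pass.

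Surface genes outside the complex gave the remaining calls. Cd7, of T and NK cells, read 125.1 and 282.7 in CBA, 188.4 and 414.0 in Xid, and 254.7 and 661.5 in Btk KO. The order was CBA, Xid, Btk KO within each run, with run 2 about as far above run 1 as the groups were apart, so CBA and Btk KO overlapped. Cd7 rose by 1.10 ± 0.16 with the block (limma adjusted p = 0.018) and did not pass without it (1.10 ± 0.57, 0.66). Under the block it missed the threshold when any CBA or Xid array was left out, with adjusted p from 0.0625 to 0.12. Il7r, a cytokine receptor of T cells, innate lymphoid cells and B cell precursors, read 24.8 and 38.8 in CBA, 55.9 and 69.0 in Xid, and 62.7 and 104.6 in Btk KO, and its rise of 1.23 ± 0.24 passed narrowly with the block (limma adjusted p = 0.0499, and 0.28 without it). It was lost when any one array was left out (0.112 to 0.224).

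Cd27, a receptor of the TNF family, differed by 0.75 ± 0.24 on its brighter probe set, and Cd2, an adhesion receptor that mouse B cells carry too, by -0.41 ± 0.20, without passing. In the same list Cd5, Cd40lg, Ctla4 and Icos were dim and were not tested. Of these, Icos alone had both Btk KO arrays (12.5 and 11.4) above all CBA and Xid arrays (1.9 to 3.9). Of the transcription factors, Satb1 and Lef1 differed by 0.45 ± 0.24 and 0.32 ± 0.22 and did not pass. Both are expressed in more than T cells, and Lef1, a partner of Tcf7 in its family, read 126.4 and 151.5 in CBA and 162.4 and 187.2 in Btk KO.

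**Figure D3:**
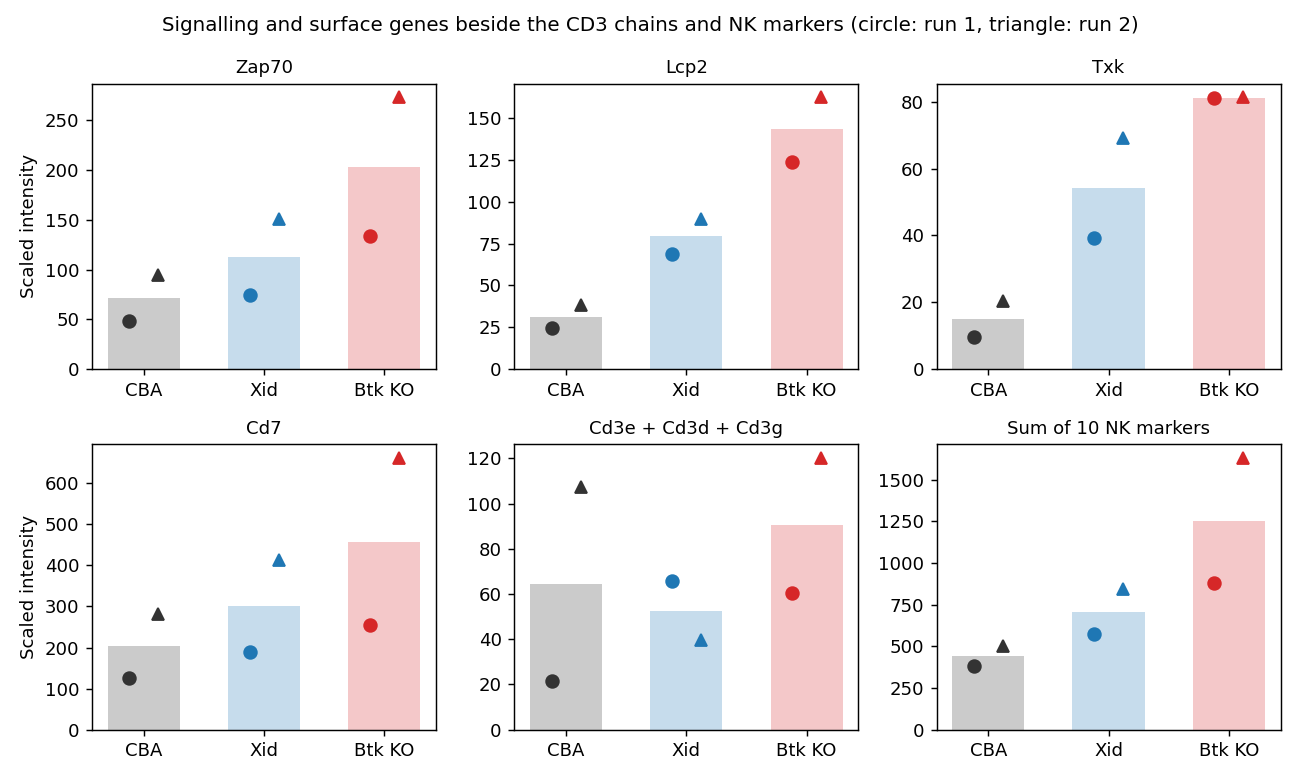
Scaled intensity by group for Zap70 (brightest probe set), Lcp2, Txk and Cd7, for the sum of the 3 CD3 chains and for the sum of 10 NK markers, with circles for run 1, triangles for run 2 and bars for the group mean. Txk is shown by its brighter probe set. The sum of the CD3 chains overlaps between all groups. That of the NK markers runs from 380 and 503.2 in CBA to 878.1 and 1630 in Btk KO.

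Markers of NK cells were also higher in Btk KO than in CBA. Summed over 10 genes, their signal was 380 and 503.2 in CBA, 571.8 and 842.1 in Xid, and 878.1 and 1630 in Btk KO, with no overlap between groups. Of 9 tested NK genes 9 were higher in Btk KO than in CBA in both runs, against 31.4% of all tested probe sets, with a median of 1.36. Of the 9, limma called 0 without the block and 4 with it, where 0.174% and 2.23% of all were called. Without the block 8 had an unadjusted p under 0.05, against 8.83% of all. Klrd1, the NK receptor chain CD94, read 65.5 and 137.3 in CBA, 108 and 200.7 in Xid, and 189.1 and 339 in Btk KO. Over the 9 genes, each by its brightest probe set, the difference of Btk KO from CBA ran from 0.46 for Klrk1 to 1.68 for Gzma. Macrophage markers, 12 genes in sum, read 1730 to 2730 in CBA, 4270 to 6640 in Xid and 6290 to 9190 in Btk KO. The 7 measured B cell markers summed to between 20800 and 21500 in CBA, 15600 and 22200 in Xid, and 14000 and 16000 in Btk KO. Neutrophil markers, 7 in sum, read 160 to 206 in CBA, 215 to 234 in Xid and 843 to 1610 in Btk KO, dendritic cell markers 343 to 450, 404 to 574 and 514 to 674, and erythroid markers 5580 to 7600, 7600 to 9070 and 10500 to 21800. In Btk KO against CBA limma called 3 of 11 tested macrophage genes without the block and 7 with it (median difference 1.89). Of 6 tested neutrophil genes it called 2 and 4 (2.6). Of 7 tested erythroid and 7 tested B cell genes it called 0 in either fit (1.46 and -0.64). Over all tested probe sets 0.174% and 2.23% were called. Within each run the NK, macrophage, neutrophil and dendritic cell sums all rose from CBA to Xid to Btk KO. For the neutrophil sum the step from CBA to Xid in run 2 was only from 206 to 215. Over the 6 tested neutrophil genes the median Xid difference from CBA was 0.17, at 0.39 in run 1 and -0.06 in run 2. Zap70, Lcp2, Txk, Cd7 and Il7r had the order CBA, Xid, Btk KO within each run too. The part of these cell types in the Zap70, Lcp2, Txk, Cd7 and Il7r differences was not tested.

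Zap70 and the CD3 chains are set side by side as values. In Btk KO against CBA, Zap70 differed by 1.42, and Cd3e, Cd3g and the brighter Cd3d set by 0.35, 0.51 and 0.87. Within run 1 they were 1.37 for Zap70 and 0.55, 0.92 and 1.56 for the 3 chains, so Cd3d lay above Zap70. Within run 2 they were 1.47 for Zap70 and 0.14, 0.10 and 0.19 for the chains. Whether Zap70 differed from the chains beyond their error was not tested.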

How the data were processed

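The deposited table gives 1 linear intensity per probe set and array. These intensity values had been scaled before they were deposited, to a mean of 100.06 on every array after trimming 2%. Which software summarised the probes is not given in the sources used here. Chip type, lot and hybridisation day are recorded per the file headers of the scanner.

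Symbols came from the platform annotation, updated by gene number for 10817 of 10833 probe sets with 1 symbol (gene table of GRCm38.p6). Intensities were taken as log2(intensity + 6). Probe sets below the 40th percentile of mean log2 level were left out, which kept 7453 of 12422. The 3 group means were fitted in 1 model with limma 3.58.1 (lmFit, and eBayes with an intensity trend; R 4.3.3, 3 residual degrees of freedom), two-sided, with Benjamini-Hochberg adjustment over the 7453 and a threshold of 0.05. The fit was tested on simulated data with independent noise of equal spread, no run effect and large changes in brighter probe sets. That test cannot show how the fit performs on dim genes, small differences or arrays that share a run. A log2 difference understates the change of dim genes.

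A replicate number stands for 1 of the 2 sets of chips that the design text describes, whose lots differ. The Btk KO chip of the first set was hybridised on another day than its partners, which the block leaves out of account. Deviations from group means correlated between groups of a run at 0.31, 0.37 and 0.44, so the blocked value is given beside each result that it changes. The alternatives tried were the block, median centring or quantile normalization, pseudocounts of 1 and 16, no filter and a 60th percentile filter, no trend, only the groups compared, and each array left out. Leaving out each array under the block, and following the 4 other T cell genes that passed, were added after seeing the data.

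All 11 member probe sets are reported. Of the other T cell lists, up to 4 genes a list with the smallest p in Btk KO against CBA are named, with any that passed. One gene that this rule names is not reported here. The members and lists were chosen with earlier results of these data known. Replicates are separate arrays from new mice, so p-values measure the spread between arrays. Promoters came from RefSeq, with windows for 6 of the 9 symbols. Figures were drawn with matplotlib 3.10.9.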

Additional observations from a re-analysis of the deposited data

How the results depend on the processing

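Under the replicate block 1 member was called in Btk KO against CBA, and likewise with any one Xid or Btk KO array left out under it. The block without either CBA array called 0. By limma no member passed in another comparison or under another alternative.

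The count over all probe sets moved most. In Xid against CBA it was 5, with 36 under the block, 3 with a pseudocount of 1, 9 with only the groups compared, 0 to 9 with an array left out and 4 to 74 with an array left out under the block. In Btk KO against CBA it was 13, with 166 under the block, 8 with quantile normalization, median centring or no filter, 29 with the stricter filter, 0 without a trend or with only the groups compared, 0 to 141 with an array left out and 23 to 403 with the block as well. In Btk KO against Xid it was 3, with 14 under the block, 5 with a pseudocount of 16, 0 with only the groups compared, 0 to 31 with an array left out and 0 to 136 with the block as well.

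The median of the tested members ranged from -0.27 to 0.79 in Xid against CBA with an array left out (-0.20 to 0.56 with the block), from 0.06 to 1.12 in Btk KO against CBA (0.16 to 0.98) and from 0.16 to 0.68 in Btk KO against Xid (0.00 to 0.68).

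Single members changed sign where differences were small, and none of these values passed. Cd3e did so when an array was left out, with ranges of -1.73 to 1.40 in Xid against CBA, -0.65 to 1.34 in Btk KO against CBA and -1.05 to 2.07 in Btk KO against Xid. Thy1 in Xid against CBA was -0.04 with quantile normalization, -0.07 with median centring and 0.00 with a pseudocount of 16, and -0.48 to 0.50 over all alternatives. Cd4 in Btk KO against Xid was 0.00 with quantile normalization and -0.02 with median centring, and -0.27 to 0.30 over all. Cd28 ranged from -0.05 to 0.79 in Xid against CBA and from -0.24 to 0.42 in Btk KO against Xid, and the r type Zap70 set from -0.08 to 0.28, 0.00 to 0.55 and -0.10 to 0.45. The causes were not tested. With 2 arrays a group, the standard errors of the tested members without the block ran from 0.32 for Cd4 to 0.80 for Cd3e. Differences of that size could therefore go undetected. At an unadjusted p under 0.05, limma had 330, 658 and 269 probe sets in the 3 comparisons, and 604, 1122 and 545 under the block.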
